A study of Mus musculus with 201 samples.

Results

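The EGR family and the NAB corepressors are 6 genes, *Egr1*, *Egr2*, *Egr3*, *Egr4*, *Nab1* and *Nab2*, taken by name from the tables of whole cells and nuclei. All 6 were listed in each table, among 42790 symbols for whole cells, 42802 for nuclei of mice placed in a new environment (labelled NE) and 42774 for home cage (HC) nuclei. The samples were single dentate granule cells (DGCs) or single nuclei of mice, each sequenced as a library of its own. Whole cells came from Prox1-GFP mice given saline or pentylenetetrazole (PTZ), a seizure-inducing blocker of GABA(A) receptors. They were dissociated with papain, sorted as GFP+ and amplified with Smart-seq2. Nuclei came from female C57BL/6 mice by Dounce homogenization. The NE nuclei were sorted as PROX1+FOS+ or PROX1+FOS- by antibody staining and amplified with Smart-seq2 under 4 conditions, and the HC nuclei, labelled as NeuN+/Prox1+, were scored for these proteins by imaging after capture and amplified on a microfluidic system.

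After filtering on total count and, for nuclei, on genes detected, 40 FOS+ nuclei, 41 FOS- nuclei, 30 PTZ-treated cells and 38 saline-treated cells were compared, and all 23 HC nuclei were described. Total counts ran from 80096 to 1035170 in FOS+ nuclei, from 63775 to 1060516 in FOS- nuclei, from 67212 to 5129240 in PTZ-treated cells, from 401331 to 2696043 in saline-treated cells and from 107647 to 278779 in HC nuclei. The labels tie no cell to an animal, and hippocampi of a whole-cell treatment were pooled, so each group counted as 1 sample. No test was therefore run between groups. Shares of cells carry exact (Clopper-Pearson) 95% intervals (CI) and sums of counts carry exact Poisson 95% intervals, which cover counting error and not the difference between animals. The 5 granule cell markers *Prox1*, *Rbfox3*, *C1ql2*, *Dsp* and *Calb1* were detected in all 5 groups, and at least 2 of them were found in 38 of 40 FOS+ nuclei, 39 of 41 FOS- nuclei, 28 of 30 PTZ-treated cells, 38 of 38 saline-treated cells and 17 of 23 HC nuclei.

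EGR proteins are zinc finger transcription factors that bind GC-rich sites, and their genes are immediate early genes (IEGs), transcribed within minutes of neuronal activity without new protein synthesis. Serum response factor with its ternary complex partners and CREB carry the calcium and ERK signal to their promoters. NAB1 and NAB2 bind EGR1, EGR2 and EGR3 through a shared inhibitory domain that EGR4 lacks, and recruit the NuRD chromatin complex with its ATPase CHD4. *Nab2* is itself known as an activity-induced EGR target, so that the corepressor forms a feedback loop on the factors that induce it. In the dentate gyrus *Egr1*, also called Zif268, is widely used as a marker of recently active granule cells.

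In GRCm38 coordinates (GENCODE), *Egr2* lies on chromosome 10 from 67535475 to 67542188 (+), *Egr3* on chromosome 14 from 70077203 to 70082614 (+) and *Egr4* on chromosome 6 from 85511121 to 85513589 (-). *Nab1* lies on chromosome 1 from 52457294 to 52500679 (-) and *Nab2* on chromosome 10 from 127660918 to 127668568 (-). The *Nab2* exons share 1050 of their 2941 bases (35.7%) with the antisense gene *Gm16229*, 151 with *Nemp1* and 40 with *Stat6*. Smart-seq2 libraries do not keep the strand, so reads from the shared bases could not be told apart. *Gm16229* was listed above a TPM of 1 in 0 FOS+ nuclei, 1 FOS- nucleus, 1 PTZ-treated cell and 1 saline-treated cell, and *Stat6* in 1 FOS+ nucleus and in no other cell or nucleus kept.

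Promoter windows from RefSeq (GRCm38.p6) matched 4 of the 6 genes, *Egr2*, *Egr4*, *Nab1* and *Nab2*. The 250 bases before a transcription start are given here for the 2 EGR genes, because they carry the letters of the response elements through which activity reaches IEGs. Capitals mark matches to the CArG box, bound by serum response factor, and to TGACG or its reverse complement CGTCA, the core of the cAMP response element bound by CREB. *Egr2* had 5 windows, of which the one at the annotated gene start held no match and the other 4 held a CArG match. Some of these 4 overlap and hold the same match. Of the windows without an annotated exon, the one given was chosen because it holds the most matches. It lies inside the annotated gene, at the start of another transcript. The *Egr2* window is chr10:67537619-67537868 on the plus strand and the *Egr4* window is chr6:85513590-85513839 on the minus strand, each written 5′ to 3′ along its gene, and neither holds an annotated exon.
Egr2: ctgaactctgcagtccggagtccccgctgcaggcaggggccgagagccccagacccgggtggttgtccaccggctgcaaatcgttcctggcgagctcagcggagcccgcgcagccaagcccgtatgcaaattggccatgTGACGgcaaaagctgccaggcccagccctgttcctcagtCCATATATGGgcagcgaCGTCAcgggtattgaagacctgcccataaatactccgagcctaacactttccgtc
Egr4: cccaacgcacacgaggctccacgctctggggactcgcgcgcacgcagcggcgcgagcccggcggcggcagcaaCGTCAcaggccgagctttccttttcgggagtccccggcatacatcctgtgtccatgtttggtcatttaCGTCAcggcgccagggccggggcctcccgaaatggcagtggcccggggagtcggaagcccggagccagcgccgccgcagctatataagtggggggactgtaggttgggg
The *Egr2* window holds a CArG match from -72 to -63 relative to the start site and CRE core matches from -111 to -107 and from -55 to -51. The *Egr4* window holds CRE core matches from -177 to -173 and from -109 to -105 and no CArG match. Searched on both strands, the CArG box was present in 1.47% of all 32851 windows of this length, the CRE core in 17.8% and the full element TGACGTCA, which contains the core, in 1.55%. The EGR site GCGNGGGCG was present in 4.70% of windows. The *Nab1* window held 3 EGR site matches and 1 CRE core match, and the *Nab2* window held none of these motifs. The *Nab1* window holds a *Nab1* exon. The *Nab2* window lies inside the annotated gene and holds exons of *Nab2* and *Nemp1*. The bases before the annotated start of *Nab2* were not searched. A match describes the letters of the window and not occupancy by a factor.

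The comparison of FOS+ with FOS- nuclei asks which transcripts accompany FOS protein in granule cells of a mouse that explored a new environment. All 4 EGR genes were found in more FOS+ than FOS- nuclei, and their summed counts were higher. *Egr4*, the family member without the NAB-binding domain, was the most distinct. A gene was called detected at a TPM above 1, which *Egr4* exceeded in 13 of 40 FOS+ nuclei (32.5%, CI 18.6 to 49.1%) and in 2 of 41 FOS- nuclei (4.88%, CI 0.596 to 16.5%). The lowest TPM among the 13 was 20.7, the median 233 and the highest 777, whereas the 2 FOS- nuclei were at 2.44 and 3.43, each with 1 count. Every detecting FOS+ nucleus thus lay above every FOS- nucleus, while the other 27 FOS+ nuclei were at 0. Summed over a group and scaled to its summed total (CPM), *Egr4* was at 143 CPM in FOS+ nuclei (CI 137 to 150) and at 0.143 CPM in FOS- nuclei (CI 0.0173 to 0.517), from 2071 and 2 counts. With 2 counts in the denominator the ratio of 1000 has a counting interval from 276 to 8263.

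*Egr1* lies in GRCm38 on chromosome 18 from 34859823 to 34864984 (+). It was likewise detected in 13 FOS+ nuclei (32.5%, CI 18.6 to 49.1%), against 5 FOS- nuclei (12.2%, CI 4.08 to 26.2%). In the 13 FOS+ nuclei its TPM ran from 2.47 through a median of 128 to 739. The 5 FOS- nuclei were at 1.53, 5.12, 7.77, 31.6 and 71.7. The ranges overlapped, and the highest FOS- value lay below the median of the detecting FOS+ nuclei. Summed counts were 147 CPM (CI 141 to 154) and 2.79 CPM (CI 1.99 to 3.82), a ratio of 52.7 with a counting interval of 38.5 to 74.4. A single nucleus gave 28 of the 39 *Egr1* counts in the FOS- group, and without the nucleus with the most counts in each group the ratio was 122.

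*Egr2*, best known for its part in hindbrain segmentation and myelination and also an IEG in neurons, was found in 6 FOS+ nuclei (15%, CI 5.71 to 29.8%) and 2 FOS- nuclei (4.88%, CI 0.596 to 16.5%). Its TPM in the FOS+ nuclei was 5.17, 9.27, 76.7, 158.5, 299 and 502, and in the FOS- nuclei 3.12 and 24.1. Summed counts were 46.6 and 0.501 CPM, a ratio of 92.9 with a counting interval of 44.8 to 232. *Egr3*, which acts with *Egr1* in synaptic plasticity, was found in 6 FOS+ nuclei and 1 FOS- nucleus (2.44%, CI 0.0617 to 12.9%). Its TPM was 3.67, 4.82, 54.9, 75.5, 78.7 and 141 in the FOS+ nuclei and 1.31 in the FOS- nucleus, so that here too no FOS- nucleus reached a detecting FOS+ nucleus. The 131 counts against 1 count gave a ratio of 127 with a counting interval of 22.3 to 5035. Levels of *Egr2* and *Egr3* therefore rested on few nuclei, with 44% and 48.9% of the FOS+ counts from 1 nucleus.

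In the ratio of summed counts over all nuclei kept, the 2 corepressors differed from the EGR genes and from each other. By difference in share *Nab1* lay between *Egr1* and *Egr3*. *Nab1* was detected in 13 FOS+ nuclei (32.5%, CI 18.6 to 49.1%) and 6 FOS- nuclei (14.6%, CI 5.57 to 29.2%). The TPM of detecting nuclei ran from 1.28 through a median of 59.0 to 451 in the FOS+ group and from 1.85 through a median of 62.1 to 1067 in the FOS- group, so the levels overlapped. The highest value of all belonged to a FOS- nucleus, which held 530 of the 565 *Nab1* counts of its group. Summed counts were 84 and 40.5 CPM, a ratio of 2.08 (counting interval 1.88 to 2.30), and without the top nucleus of each group the ratio was 24.2.

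*Nab2* was the most widely detected of the 6 genes in both sort groups, in 17 FOS+ nuclei (42.5%, CI 27 to 59.1%) and 13 FOS- nuclei (31.7%, CI 18.1 to 48.1%). The TPM of detecting nuclei ran from 1.08 through 23.6 to 470 in FOS+ nuclei and from 1.38 through 7.13 to 460 in FOS- nuclei. Its share was higher in FOS+ nuclei, but its summed counts were lower, at 54.4 CPM (CI 50.7 to 58.4) against 101 (CI 96.0 to 107). The ratio of FOS- to FOS+ was 1.86 (counting interval 1.70 to 2.03). In the FOS- group 1 nucleus gave 648 of the 1413 *Nab2* counts, and without the top nucleus of each group the ratio was 1.40. When each nucleus was weighted equally, by the mean CPM over nuclei, the log2 ratio of FOS+ over FOS- was 0.03, so that the direction of the *Nab2* level depended on this choice.

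**Figure D1:**
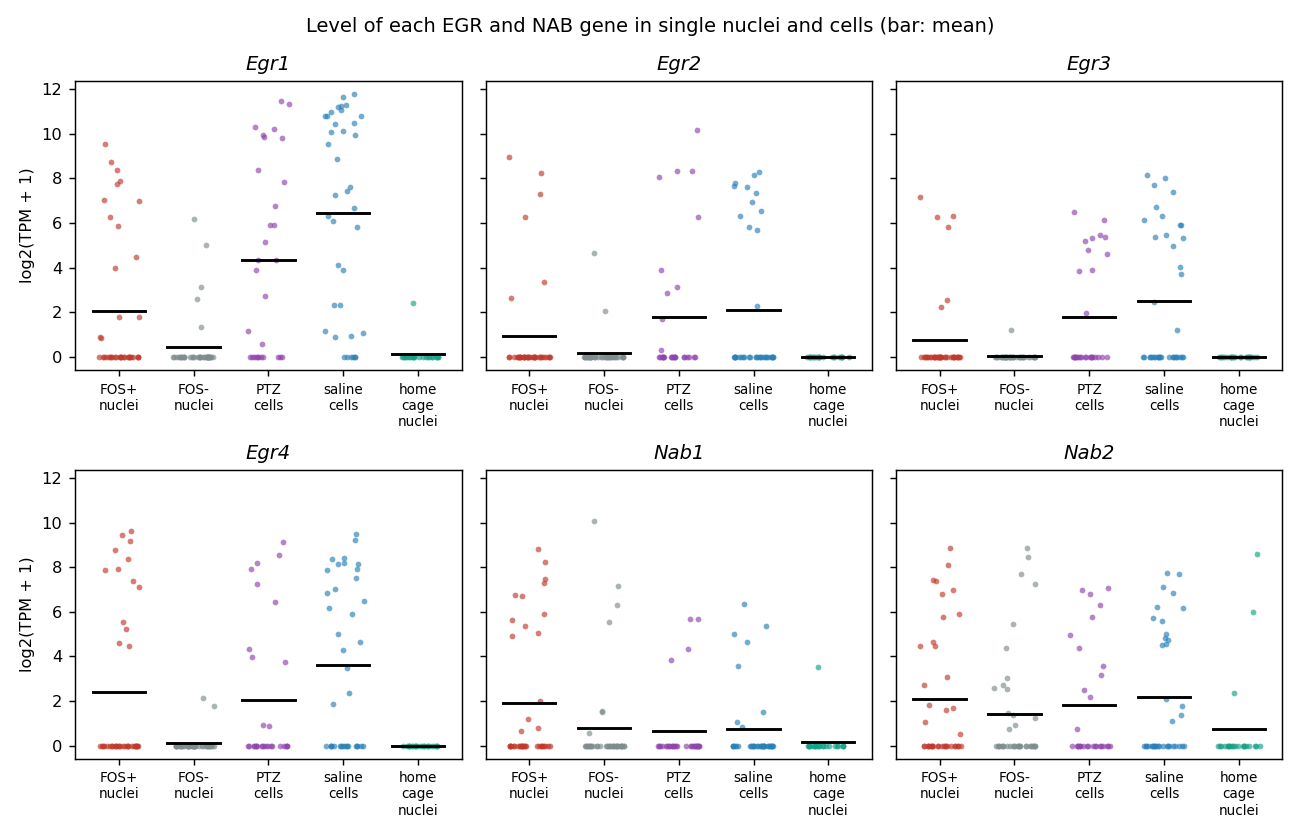
Level of each gene as log2(TPM + 1) in every nucleus or cell kept, 1 point each, with a bar at the mean of the group, in FOS+ (40) and FOS- (41) NE nuclei, PTZ-treated (30) and saline-treated (38) whole cells and HC nuclei (23). Most points of the nuclei lie at 0, and *Egr4* separates the detecting FOS+ nuclei from the 2 detecting FOS- nuclei, whereas *Nab2* spans the same range in both. The 3 experiments were normalized in tables of their own.

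As the mean of log2(TPM + 1) with the SD between nuclei, *Egr4* was at 2.39 ± 3.63 in FOS+ and 0.10 ± 0.43 in FOS- nuclei, *Egr1* at 2.05 ± 3.23 and 0.45 ± 1.36, and *Nab1* at 1.92 ± 2.99 and 0.80 ± 2.25. *Nab2* was at 2.08 ± 2.92 and 1.43 ± 2.57, *Egr2* at 0.92 ± 2.40 and 0.16 ± 0.79, and *Egr3* at 0.76 ± 1.98 and 0.03 ± 0.19. For each gene the difference between the means was smaller than the SD within FOS+ nuclei.

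Read against all genes, the EGR genes ranked higher by summed counts than by share. Of the 16411 genes with a count in at least 5 nuclei kept, 17.8% had summed counts at least 2-fold higher in FOS+ nuclei and 28.2% at least 2-fold lower. Of the 6 genes, 5 were past this limit upwards and 0 downwards, with *Nab1* close to the limit at 2.08 and *Nab2* not past it. For this scale a sum of at most 3 counts was set to 3. The log2 ratio ranked *Egr4* 9, *Egr2* 65, *Egr1* 109 and *Egr3* 138 of all genes, *Nab1* 2791 and *Nab2* 11397. *Egr2*, *Egr3* and *Egr4* had counts in fewer than 5 FOS- nuclei, so they entered this background only through FOS+ nuclei. Their ranks and places past the limits therefore depend in part on that filter. The share of detecting nuclei was at least 10 percentage points higher in FOS+ nuclei for 16.1% of the genes and at least 10 points lower for 16.5%. All 6 genes were past the upper limit, by 27.6 points for *Egr4*, 20.3 for *Egr1*, 17.9 for *Nab1*, 12.6 for *Egr3*, 10.8 for *Nab2* and 10.1 for *Egr2*, so that the last 2 stood just inside it. Some of these differences fell below the limit without the nuclei of 1 amplification condition. Without that with 10 µM template-switching oligonucleotide and ERCC spike-ins at 1:2000, the difference was 3.56 points for *Egr2*, 6.90 for *Egr3* and 7.47 for *Nab1*. Without that with 10 µM and 1:200 the difference was 5.9 points for *Nab2*. Without that with 1 µM and 1:2000 the difference was 9.17 points for *Egr2*. Without nuclei with at least 2 markers of another cell class it was also below the limit for *Egr1*, *Egr2*, *Egr3* and *Nab1*, with values given beside those markers. By share difference *Egr4* ranked 231 and *Egr2* 2532. The median log2 ratio over the 6 genes was 5.56 and over all genes -0.20, and the median share difference was 15.2 points against -0.79 points.

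**Figure D2:**
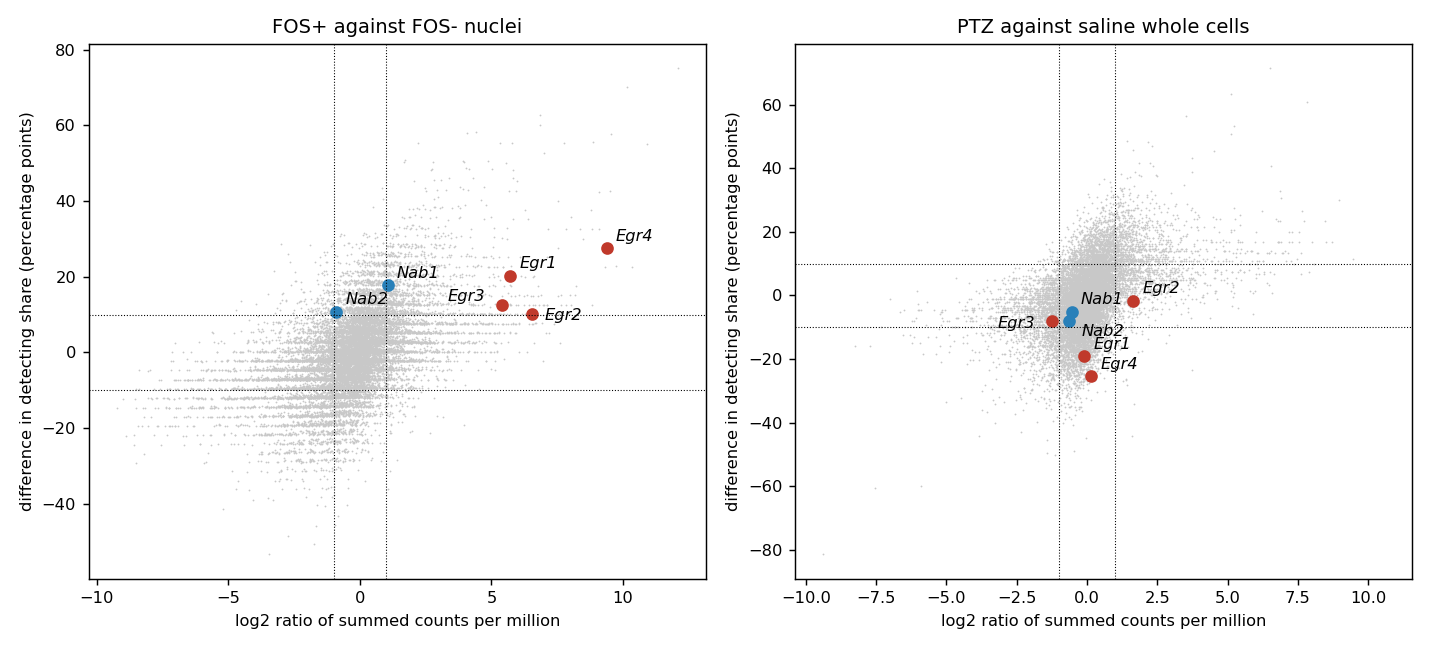
Each gene tested is a grey point, with the log2 ratio of summed counts (CPM) on the horizontal axis and the difference in the share of detecting cells in percentage points on the vertical axis, for FOS+ against FOS- nuclei (left, 16411 genes) and PTZ against saline (right, 14492 genes). EGR genes are red and NAB genes blue, and dotted lines mark 2-fold and 10 points. The EGR genes lie at log2 ratios from 5.4 to 9.38 on the left and from -1.25 to 1.65 on the right.

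The NE nuclei were amplified with 1 or 10 µM template-switching oligonucleotide (TSO) and with ERCC spike-ins at 1:200 or 1:2000, and each of the 4 combinations held 8 to 11 nuclei of either sort group. *Egr4* was the single gene of the 6 with a higher share of FOS+ nuclei in each combination, a pattern shared by 4.66% of all genes. Its FOS+ shares were 3 of 10, 4 of 8, 1 of 11 and 5 of 11 nuclei, in the order 1 µM and 1:200, 1 µM and 1:2000, 10 µM and 1:200, and 10 µM and 1:2000. The FOS- shares were 0 of 10, 0 of 10, 0 of 10 and 2 of 11. *Egr1* was higher by 20, 50.0 and 18.2 points in 3 combinations and lower by 1.82 points with 10 µM and 1:200, where 2 of 11 FOS+ and 2 of 10 FOS- nuclei detected it. *Nab1* was higher in 3 combinations, most with 10 µM and 1:2000 (6 of 11 against 1 of 11), and *Nab2* was equal there, at 6 of 11 in both sort groups. *Egr2* was higher in 2 combinations and equal in 2, and *Egr3* was higher in 3 and equal in 1. The combination of 10 µM and 1:200 had the lowest median total count, 152332 in FOS+ and 79166 in FOS- nuclei, and the highest was 687744 in FOS+ and 586358 in FOS- nuclei with 1 µM and 1:2000. With reads thinned to 60000 per nucleus all 6 genes kept a higher share in FOS+ nuclei.

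**Figure D3:**
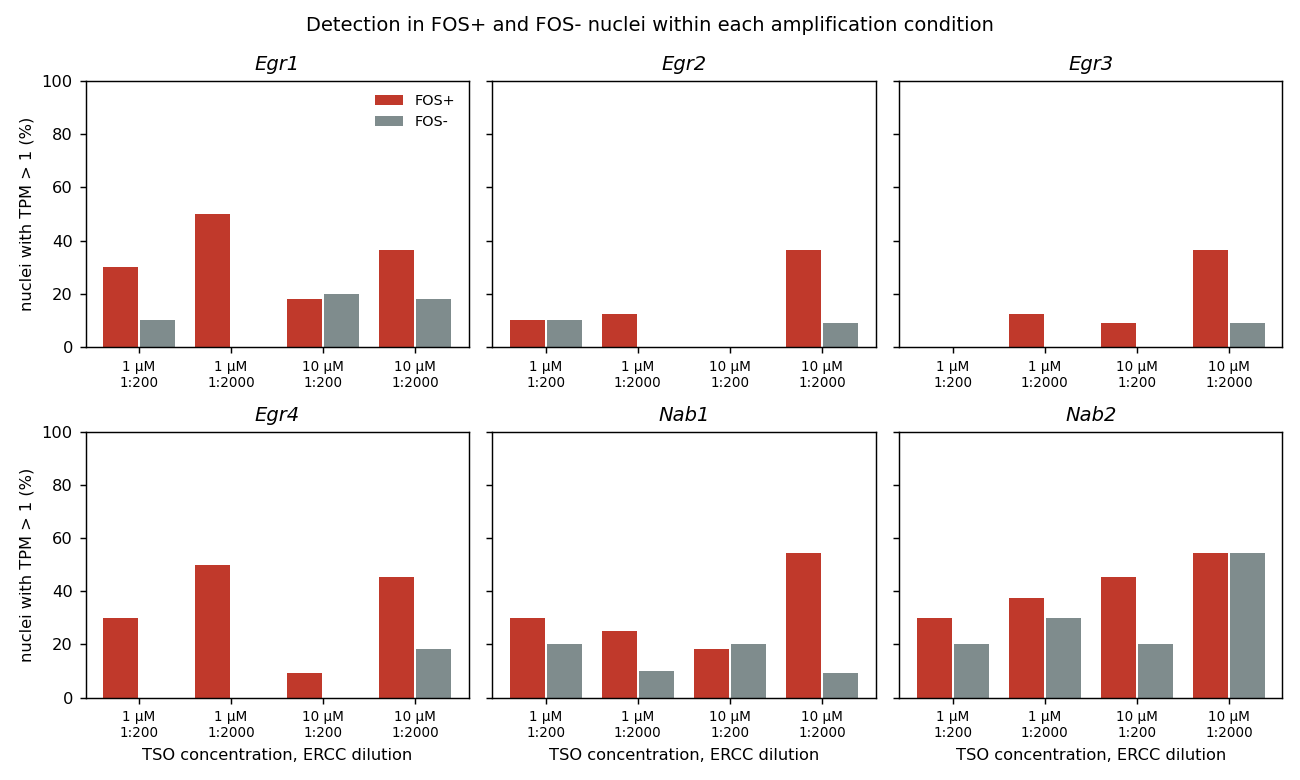
Share of nuclei with a TPM above 1, in percent, for FOS+ (red) and FOS- (grey) nuclei within each combination of TSO concentration and ERCC dilution, with 8 to 11 nuclei per bar and no error bars. *Egr4* is higher in FOS+ nuclei in all 4 combinations, and *Nab2* is level between the groups with 10 µM and 1:2000.

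Some EGR genes shared nuclei. At least 1 of the 4 was detected in 20 of 40 FOS+ nuclei (50.0%, CI 33.8 to 66.2%) and in 9 of 41 FOS- nuclei (22%, CI 10.6 to 37.6%). At least 2 were detected in 12 FOS+ nuclei and 1 FOS- nucleus, and 3 in 6 FOS+ nuclei and 0 FOS- nuclei. No nucleus held all 4. The most frequent pair was *Egr1* with *Egr4*, in 8 FOS+ nuclei, 61.5% of the nuclei with each gene, and 5 nuclei held *Egr1* without *Egr4* and 5 the reverse. *Egr2* and *Egr3*, each found in 6 nuclei, shared 1. The product of the shares corresponds to 4.23 nuclei for *Egr1* with *Egr4*, to 0.9 for *Egr2* with *Egr3* and to 1.95 for *Egr1* with *Egr3*, which shared 3. The 20 FOS+ nuclei with an EGR gene had a median total count of 419350 and the other 20 had 218083, and the part of depth in this split was not tested.

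The 2 corepressors differed in how often they shared nuclei with EGR genes, and the difference was not tested. *Nab1* was detected in 10 of the 20 FOS+ nuclei with an EGR gene and in 3 of the 20 without. *Nab2* was detected in 7 of the 20 with an EGR gene and in 10 of the 20 without. *Nab1* shared 8 nuclei with *Egr1* and 7 with *Egr4*, whereas *Nab2* shared 4 with each, although more nuclei held *Nab2*. With *Egr2* *Nab1* shared 4 nuclei and *Nab2* 2, and with *Egr3* both shared 4. In FOS- nuclei 1 of the 6 with *Nab1* and 4 of the 13 with *Nab2* also held an EGR gene.

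*Arc*, an effector IEG and EGR target, and *Fos* itself give the activity context of these nuclei. *Arc* was detected in 31 of 40 FOS+ nuclei, and 19 of these 31 held an EGR gene, against 1 of the 9 FOS+ nuclei without *Arc*. The product of the shares corresponds to 15.5 nuclei with both. With 10 µM TSO and 1:200 ERCC, the combination with the lowest median total count, *Arc* was detected in 5 of 11 FOS+ nuclei. In the other combinations it was detected in 10 of 10, 7 of 8 and 9 of 11. The part of depth and amplification in this overlap was not tested. All 13 FOS+ nuclei with *Egr4* held *Arc*, as did 12 of the 13 with *Egr1*, all 6 with *Egr2* and all 6 with *Egr3*. *Fos* mRNA was detected in 12 FOS+ nuclei, of which 10 held an EGR gene. Of the 9 FOS- nuclei with an EGR gene none held *Arc* and 1 held *Fos*.

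**Figure D4:**
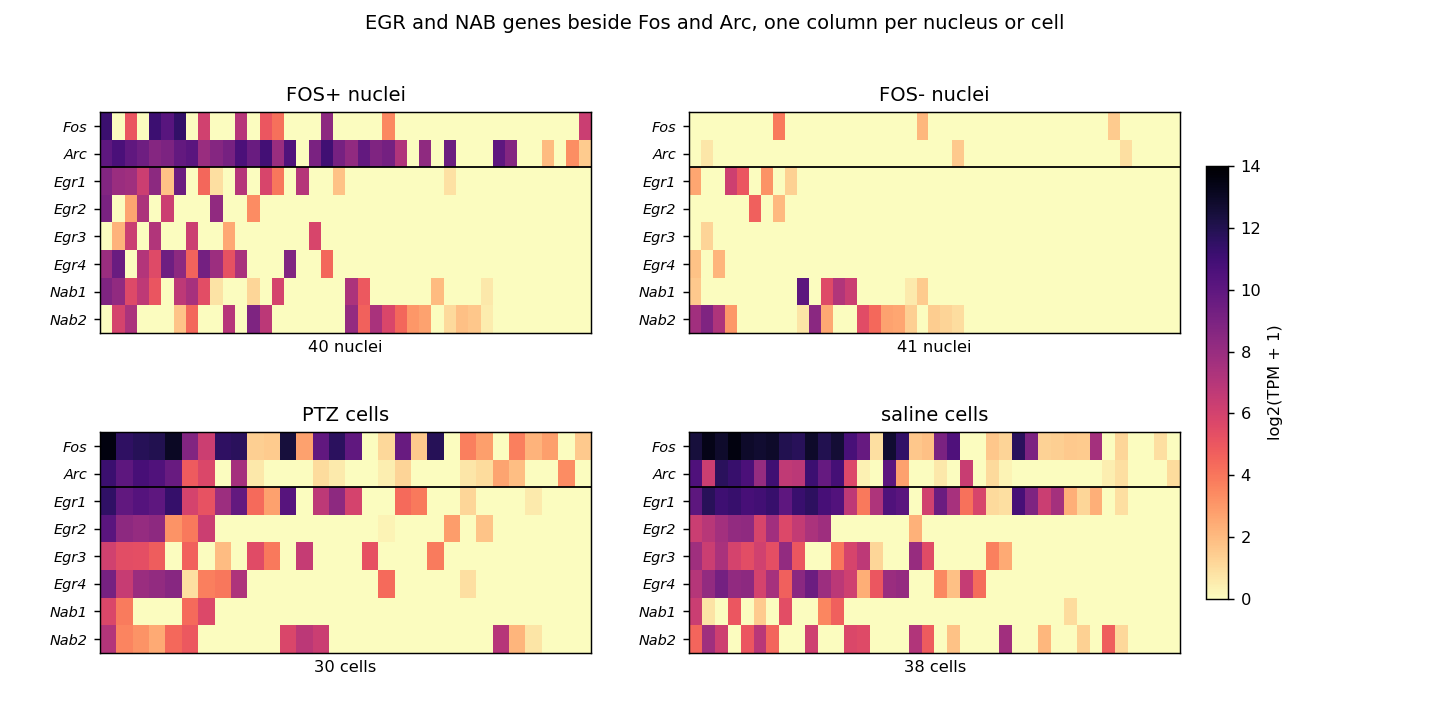
Level of *Fos*, *Arc* and the 6 genes as log2(TPM + 1), 1 column per nucleus or cell, ordered in each group by the number of EGR genes detected and then by their summed level with the NAB genes. In FOS+ nuclei *Arc* is present in 19 of the 20 columns with an EGR gene and *Nab1* in 10, whereas *Nab2* is present in 7 of these and in 10 of the 20 without. In saline-treated cells all 17 columns with *Arc* hold an EGR gene.

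The comparison of PTZ with saline asks what seizure activity adds in dissociated whole cells. At least 1 EGR gene was found in most cells of both treatments, and no EGR or NAB gene was detected in a larger share of PTZ-treated cells, except that *Egr2* was higher by 1.75 points at a TPM above 0 and by 5.90 points with all cells, and *Nab1* by 0.175 points at a TPM above 5 or a count of at least 5. *Egr1* was found in 18 of 30 PTZ-treated cells (60.0%, CI 40.6 to 77.3%) and 30 of 38 saline-treated cells (78.9%, CI 62.7 to 90.4%). Over all cells its TPM ran from 0 through a median of 16.6 to 2871 after PTZ and from 0 through 163 to 3515 after saline. Summed counts were 1180 CPM after PTZ and 1260 after saline, a ratio of 0.937 (counting interval 0.925 to 0.948). The log2 ratio was -0.95 by the mean CPM over cells and -0.72 with TMM scaling, against -0.09 by summed counts.

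*Egr4* showed the largest share difference of the 6, with 9 PTZ-treated cells (30%, CI 14.7 to 49.4%) against 21 saline-treated cells (55.3%, CI 38.3 to 71.4%). Detecting cells had a median TPM of 149 after PTZ and 127 after saline, with ranges of 12.4 to 560 and 2.58 to 726 that overlapped throughout. Summed counts were 115 and 103 CPM, a ratio of 1.11, and the mean CPM over cells put PTZ lower, at a log2 ratio of -0.78. The share of *Egr4* cells and its summed counts thus pointed in opposite directions.

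*Egr2* was the gene of the 6 past 2-fold higher summed counts after PTZ, 212 against 67.7 CPM, a ratio of 3.14 (counting interval 3.01 to 3.28). Its share was 9 of 30 PTZ-treated cells (30%, CI 14.7 to 49.4%) and 12 of 38 saline-treated cells (31.6%, CI 17.5 to 48.7%). The highest PTZ-treated cell was at 1139 TPM with 3194 of the 8900 counts, and the highest saline-treated cell was at 307 TPM. The median TPM of detecting cells was 77.2 after PTZ and 142 after saline, the reverse order. The PTZ median was the value of a cell with 1 *Egr2* count, so this order is not firm. Without the top cell of each treatment the ratio was 2.76, and the mean CPM over cells gave a log2 ratio of 0.73, below the 2-fold limit.

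*Egr3* was lower after PTZ, with summed counts of 14.3 against 34.2 CPM, or 2.38-fold (counting interval 2.16 to 2.62), and shares of 11 of 30 (36.7%, CI 19.9 to 56.1%) and 17 of 38 cells (44.7%, CI 28.6 to 61.7%). *Nab2* had the same numbers of detecting cells, 11 and 17, and 26.4 against 41.1 CPM, a ratio of 0.643. *Nab1* was the least detected of the 6, in 4 PTZ-treated cells (13.3%, CI 3.76 to 30.7%) and 7 saline-treated cells (18.4%, CI 7.74 to 34.3%), with 6.32 and 9.27 CPM. The highest TPM of *Nab1* was 50.7 after PTZ and 79.4 after saline.

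**Figure D5:**
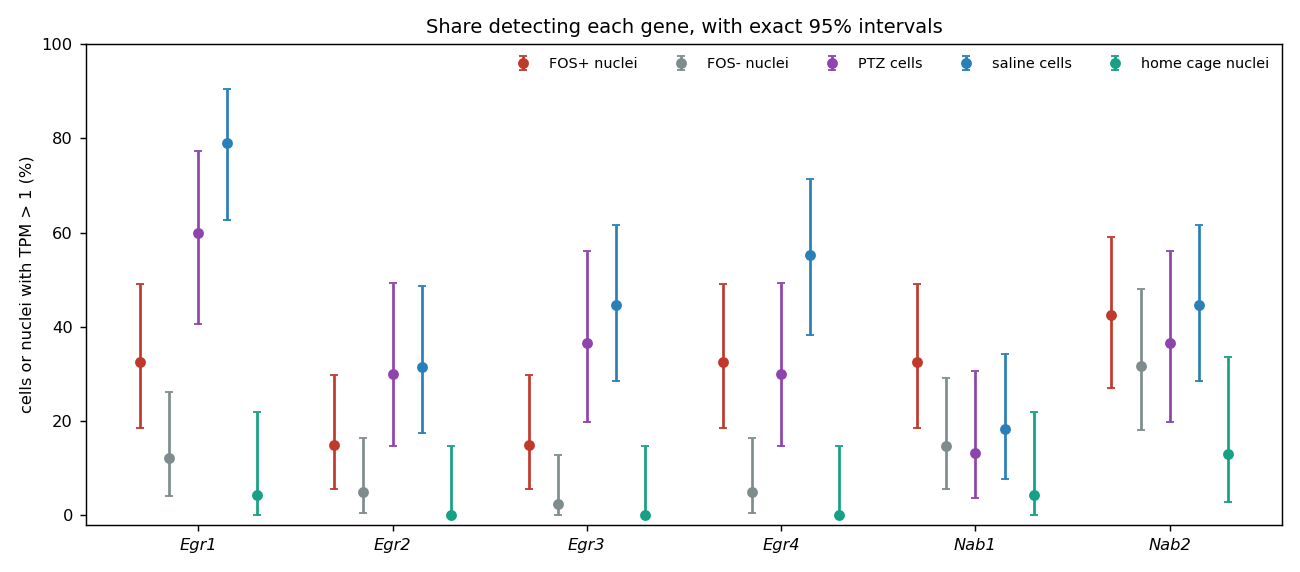
Share of cells or nuclei with a TPM above 1, in percent, with exact 95% intervals, for the 6 genes in the 5 groups. FOS+ nuclei lie above FOS- nuclei for each gene, saline-treated cells lie above PTZ-treated cells for each gene, and *Egr2*, *Egr3* and *Egr4* are at 0 of 23 HC nuclei.

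Among the 14492 genes tested in whole cells, 13.2% had summed counts at least 2-fold higher after PTZ and 14% at least 2-fold lower, and of the 6 genes 1 (*Egr2*) and 1 (*Egr3*) passed these limits. The share of detecting cells was at least 10 points higher for 16.1% of the genes and lower for 19.3%, and of the 6 genes 0 were higher and 2 (*Egr1* and *Egr4*) lower. The differences were -25.3 points for *Egr4*, -18.9 for *Egr1*, -8.07 for both *Egr3* and *Nab2*, -5.09 for *Nab1* and -1.58 for *Egr2*. With all cells, including those filtered out, *Egr1* was at -8.8 points, short of the limit. The median log2 ratio was -0.32 over the 6 genes and -0.04 over all genes. The sample titles end in a code that is not explained and that no PTZ-treated cell shares with a saline-treated cell, so whatever it marks and the treatment cannot be told apart.

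Several EGR genes were often detected in the same whole cell. At least 1 EGR gene was detected in 24 of 30 PTZ-treated cells (80.0%, CI 61.4 to 92.3%) and 32 of 38 saline-treated cells (84.2%, CI 68.7 to 94%). The difference was -4.21 points, and with all cells, including those filtered out, it was 7.66 points, the other direction. At least 2 were detected in 11 PTZ-treated cells (36.7%, CI 19.9 to 56.1%) and 24 saline-treated cells (63.2%, CI 46 to 78.2%), and all 4 in 4 and 9 cells. Every one of the 21 saline-treated cells with *Egr4* also held *Egr1*, as did 8 of 9 such PTZ-treated cells. All 17 saline-treated cells with *Arc* held an EGR gene, and 11 of 14 PTZ-treated cells with *Arc* did. The product of the shares of EGR and *Arc* cells corresponds to 14.3 and 11.2 cells, so the PTZ count was at that product. For *Egr1* with *Egr4* in saline-treated cells the product corresponds to 16.6 cells. All 4 PTZ-treated and all 7 saline-treated cells with *Nab1* held *Egr1*, where the products correspond to 2.4 and 5.53 cells. The 6 PTZ-treated cells without an EGR gene had a median total count of 306052 and the 24 with one had 1291685, whereas in saline-treated cells the values were 1137974 and 946464. The part of depth in this pattern was not tested.

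Markers of other cell types were detected at unequal shares. At least 1 of the CA3 and mossy cell markers *Calb2*, *Bok* and *Grik4* was detected in 21 of 30 PTZ-treated and 12 of 38 saline-treated cells, with summed TPM of the 3 from 0 to 1857 and from 0 to 639, and none of the 3 was at 0 throughout either group. For NE nuclei the interneuron markers *Gad1*, *Gad2* and *Slc32a1* were detected in 27 of 40 FOS+ and 17 of 41 FOS- nuclei, with summed TPM from 0 to 1360 and from 0 to 1313, and *Slc32a1*, the vesicular GABA transporter, was at 0 in FOS+ nuclei. After removal of cells with at least 2 markers of another class, which left 19 PTZ-treated and 34 saline-treated cells, the share of each of the 6 genes was still lower after PTZ, by between 14.2 and 29.6 points. In nuclei this left 15 FOS+ and 24 FOS-, and the shares of the 6 genes stayed higher in FOS+ nuclei, by 15.8 points for *Egr4*, 10.8 for *Nab2*, 7.5 for *Egr1*, 2.5 for *Egr2* and *Egr3* and 1.67 for *Nab1*. The part of these markers in the results was otherwise not tested.

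In the HC nuclei, taken without exposure to a new environment, EGR transcripts were at the limit of detection. *Egr1* was found in 1 of 23 nuclei (4.35%, CI 0.110 to 21.9%), at a TPM of 4.35 from 1 count. *Egr2*, *Egr3* and *Egr4* were found in 0 of 23 nuclei, which allows a share of up to 13% by the limit of 3 counts and of 14.8% by the exact interval. *Nab1* was found in 1 nucleus at 10.6 TPM and *Nab2* in 3 nuclei (13%, CI 2.78 to 33.6%), at 4.13, 61.7 and 382 TPM. *Nab2* was therefore the most frequent of the 6 here too. These nuclei were amplified on another platform and normalized apart, and no comparison with the NE nuclei was made.

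TPM is scaled by transcript length, so levels of different genes can be set in order within a group. By mean TPM the order in FOS+ nuclei was *Egr4* (92.7), *Egr1* (59.4), *Nab2* (37.8), *Nab1* (37.5), *Egr2* (26.3) and *Egr3* (8.96), and the intervals of their detected shares overlapped between every pair of neighbours. In FOS- nuclei *Nab1* (32.6) and *Nab2* (30.8) came first and *Egr1* (2.87) next. The place of *Nab1* rested on the nucleus at 1067 TPM, without which its mean was 6.71. The other EGR genes followed, *Egr2* at 0.664, *Egr4* at 0.143 and *Egr3* at 0.0320. In saline-treated cells *Egr1* (833) was followed by *Egr4* (107), *Egr2* (46.9), *Egr3* (38.9), *Nab2* (27.5) and *Nab1* (4.97). In PTZ-treated cells the order was *Egr1* (389), *Egr2* (71.9), *Egr4* (58.2), *Nab2* (19.4), *Egr3* (13.2) and *Nab1* (4.43). The place of *Egr2* above *Egr4* rested on the cell at 1139 TPM. Without the top cell of each gene their means were 35.1 and 40.9. The mean TPM of *Egr1* was 1.58 times that of *Nab1* in FOS+ nuclei, 0.0881 times in FOS- nuclei, 87.7 times in PTZ-treated cells and 168 times in saline-treated cells. Nuclei and whole cells differ in compartment, strain, dissociation and treatment, so these values stand side by side without a test.

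The pathway around the 6 genes was described with lists of EGR targets, upstream signalling genes, NuRD subunits and other IEGs. Of 15 EGR targets, 12 were tested in nuclei, of which 4 were at least 2-fold higher and 3 at least 2-fold lower in FOS+ nuclei, with a median log2 ratio of -0.48. Over all genes these shares were 17.8% and 28.2%, and the counts of the EGR targets, upstream and NuRD lists are to be read against them. The higher ones were *Arc* (31 against 1 nuclei), the growth factor *Pdgfa* at a log2 ratio of 2.37, *Vegfa* at 1.46 and *Trp53* at 2.17. The value of *Trp53* was 0.87 without its top nuclei. *Dlg4*, encoding the postsynaptic scaffold PSD-95, was lower at -1.60. By share of detecting nuclei, 5 of the 12 were at least 10 points higher and 2 lower, beside 16.1% and 16.5% of all genes. In whole cells 11 of the targets were tested, 0 were at least 2-fold higher after PTZ and 3 at least 2-fold lower, beside 13.2% and 14% of all genes. The share was at least 10 points higher for 0 and lower for 1, beside 16.1% and 19.3% of all genes.

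Of the 11 upstream genes, 2 were at least 2-fold higher and 1 at least 2-fold lower in FOS+ nuclei, near or below the shares over all genes. The share of detecting nuclei was at least 10 points higher for 3 and lower for 1, beside 16.1% and 16.5% of all genes. The MEK1 gene *Map2k1* was found in 27 FOS+ and 17 FOS- nuclei with a log2 ratio of 1.08, the SRF coactivator *Mkl1* was at 1.17 and the ERK1 gene *Mapk3* at -2.42. In whole cells 0 were at least 2-fold higher and 1 lower after PTZ, beside 13.2% and 14% of all genes. There 5 had a share at least 10 points lower against 1 higher, beside 19.3% and 16.1% of all genes. Of the 13 NuRD genes 12 were tested in nuclei, with 2 higher and 2 lower by 2-fold, both again near or below the shares over all genes. By share of detecting nuclei, 6 of the 12 were at least 10 points higher in FOS+ nuclei and 1 lower, beside 16.1% and 16.5% of all genes. *Mbd2*, a methyl-CpG binding subunit, was found in 17 FOS+ and 2 FOS- nuclei with a log2 ratio of 6.28, and the histone chaperone *Rbbp7* in 31 and 19 nuclei with 3.33. *Hdac2* was at -2.39 and *Mta3* at -2.05. *Chd4*, the subunit that NAB proteins contact, was found in 26 of 40 FOS+ and 34 of 41 FOS- nuclei at a log2 ratio of -0.09. In whole cells 1 of the 13, *Gatad2a*, was at least 2-fold higher after PTZ and 0 lower, beside 13.2% and 14% of all genes. There 4 had a share at least 10 points lower against 1 higher, beside 19.3% and 16.1% of all genes.

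Of the 6 other IEGs 5 were tested in nuclei. All 5 were at least 2-fold higher in FOS+ nuclei and at least 10 points higher by share, beside 17.8% and 16.1% of all genes. The list holds *Fos*, whose protein set the sort, and *Arc*, also counted among the EGR targets. *Fosb* was found in 19 against 2 nuclei, *Junb* in 18 against 5 and *Nr4a1* in 13 against 4. In whole cells 1 of the 6, *Ier2*, was at least 2-fold higher after PTZ, at a log2 ratio of 1.56, beside 13.2% of all genes. The share was at least 10 points lower for 2, *Fosb* at -11.9 points and *Nr4a1* at -13.9 points, beside 19.3% of all genes. The median log2 ratio of the 6 was 0.04, beside -0.32 for the EGR and NAB genes.

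The genes most like each member across the 81 NE nuclei were found by Pearson's r of log2(TPM + 1), given as a description over FOS+ and FOS- nuclei together, so that differences of depth and sort group enter r. For *Egr1* they were *Fos* (r = 0.60), *Nr4a1* (0.59) and *Nr4a3* (0.58), and for *Egr4* *Plce1*, *Nr4a2* and *Ptgs2* (each 0.65). For *Egr2* they were *Gls2* (0.59), *Gm8883* (0.54) and *Lbh* (0.54), with 8 detecting nuclei. For *Nab1* they were *Coq10b* (0.51) and *Fosb* (0.50), and for *Nab2* *Aimp2* (0.49), *Mms19* (0.45) and *Dennd4a* (0.44). *Egr3* was in too few nuclei for this ranking. Between members, r was 0.54 for *Egr1* with *Egr4* and 0.45 for *Egr1* with *Nab1*, and 0.04 for *Egr1* with *Nab2*.

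Across the 68 whole cells the same ranking gave *Fosb* (0.85), *Fos* (0.84) and *Nr4a1* (0.80) for *Egr1*, and *Arc* (0.89), *Npas4* (0.82) and *Gm13889* (0.80) for *Egr4*. *Arc* (0.82), *Npas4* (0.74) and *Egr4* (0.73) were most like *Egr2*. *Sgk1* (0.62), *Fabp3* (0.59) and *Mrpl46* (0.58) were most like *Egr3*, *Znfx1* (0.69), *Trib1* (0.64) and *Nptx2* (0.60) most like *Nab1*, and *Rbm12b2* (0.58), *4833421G17Rik* (0.52) and *Eif2b2* (0.51) most like *Nab2*. *Egr1* and *Egr4* reached r = 0.77 here. For *Nab2* r was 0.22 with *Egr1*, 0.37 with *Egr2*, 0.49 with *Egr3* and 0.23 with *Egr4*. No other IEG of the lists was among the 3 leading genes of *Nab2* in either set.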

How the data were processed

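Single-cell libraries of 82 whole cells, 96 NE nuclei and 23 HC nuclei were used. Per the labels and methods, the authors trimmed the reads and aligned them with RSEM and Bowtie 1.0.0 to mm10 with Ensembl genes (paired-end for whole cells and HC nuclei, single-end for NE nuclei). They deposited expected counts per gene without normalization and TPM values computed within each cell. The tables hold no spike-ins.

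Cells were grouped by their labels. NE nuclei and whole cells were kept if their total count exceeded 50000 and their number of genes above 1 TPM exceeded the mean minus 2 SD of the table, a limit that lay below 0 for whole cells and so removed none. All HC nuclei were kept. Nuclei that the study set apart within the FOS+ sort are not named in the labels and stayed in it. A gene was detected at a TPM above 1. Expected counts were rounded, summed over the cells of a group and divided by the summed totals. Ratios carry exact binomial counting intervals given both sums. Genes with a count in at least 5 cells kept formed the background, and limits were 2-fold and 10 percentage points. Means used a pseudocount of 1. Alternatives used edgeR 4.0.16 for TMM factors. Other steps ran in Python 3.11.15 with scipy 1.17.1. The calculation of the ratio was checked on simulated Poisson counts with known folds in genes of high expected counts. That check does not bear on ratios that rest on few counts or on 1 nucleus. Reads carry no molecular identifiers, so intervals cover counting error alone. At most 5 genes past a limit were named per list. The members and lists were chosen with earlier results of these data known. Of the 3 genes most like each member, 1 for *Nab1* in nuclei is not reported here.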

Additional observations from a re-analysis of the deposited data

How the results depend on the processing

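The difference in detected share was recomputed for each of the 6 genes at detection limits of a TPM above 0, a TPM above 5 and a count of at least 5, with all cells, with reads thinned to 60000 and, for nuclei, without each amplification condition in turn. A further alternative, chosen after seeing the data, left out cells with at least 2 markers of another class. In nuclei all 60 values stayed higher in FOS+ nuclei, and 1 moved by more than the interval of the shares, *Nab1* without cells with other markers, from 17.9 to 1.67 points. In whole cells 0 of 36 moved so far, and the sign differed for *Egr2* in 2 of 6 alternatives and for *Nab1* in 2 of 6.

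The number of genes past 2-fold in nuclei was 5, and 3 with genes required in at least 10 cells, since *Egr2* and *Egr3* were then not tested. The number past the share limit was 6, and 2 with a limit of 20 points, 4 with genes in at least 10 cells, and 5 at a TPM above 0, at a count of at least 5 and with thinned reads. In whole cells 2 genes were past 2-fold, 0 at a limit of 4-fold and 1 with the mean CPM over cells. Past the share limit were 2, and 1 at 20 points, and with all cells *Egr1* fell short of 10 points, at -8.8. Of the log2 ratios, 20 of 48 in nuclei and 6 of 24 in whole cells moved by more than 1.5-fold. The *Nab1* ratio in nuclei ranged from 0.47 without the 10 µM TSO and 1:2000 ERCC condition to 4.60 without its top nuclei, and the *Egr3* ratio was 2.87 without the same condition. Where a value moved, the cause was not tested. No paired analysis was possible because no result comes from a test and replicate numbers only name cells. With 1 sample per group the spread between animals is unknown, and with 30 to 41 cells per group a difference within the intervals was not detectable at this depth.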
